A study of Rattus norvegicus with 12 samples.

Results

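The response of rat kidney fibroblasts to 24 hours of TGFB1 was followed across all expressed genes, from 3 libraries of cells given the cytokine and 3 of cells given vehicle. These 6 of the 12 RNA sequencing libraries of the series were chosen by their titles, and 14601 of the 43360 genes in the count table passed a filter on low counts. The cells were NRK-49F, an established fibroblast line from normal rat kidney, and all 6 libraries came from cells transfected with pcDNA3.1, a plasmid vector without an insert. The first group received TGFB1 at 2 ng/ml in medium with 0.5% serum, and the other received vehicle in the same medium. The other 6 libraries came from cells given a plasmid for human HDAC1 with a Flag tag, again with vehicle or TGFB1, and they entered the same model so that all 4 groups of 3 shared 1 estimate of the spread. Titles set the groups, since the treatment field in the labels counts upward from sample to sample and the design text reads as if every culture had been treated. No label states whether replicates were grown apart, which means that a p-value here reflects variation among libraries only, in 1 cell line at 1 dose and 1 time.

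TGFB1 is a secreted cytokine that binds paired kinase receptors, which phosphorylate SMAD2 and SMAD3. These join SMAD4 and enter the nucleus, where they switch genes on and off at sites that contain the letters CAGAC. In the kidney the pathway is known as a driver of fibrosis, in which fibroblasts become contractile, matrix-producing myofibroblasts.

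Each library held between 18397093 and 27119357 counts. In the vehicle group the log2 levels of replicate 1 correlated (Pearson) with those of replicates 2 and 3 at 0.984 and 0.986 across genes, while the other pairs within a group of the 6 libraries ran from 0.991 to 0.993. Replicate 1 of the vehicle group also held less RNA of heart and brain genes. The 24 heart muscle genes tested summed to 75.7 CPM (the usual unit of counts scaled to a common library size) in it, to 409 and 435 CPM in vehicle replicates 2 and 3, and to 465 to 589.9 CPM with TGFB1. The sums for 22 brain genes were 204 CPM in it and 280.1 to 303 CPM in the other 5 libraries. Of the heart genes 3 were called higher with TGFB1 and the list median was 0.76 on the log2 scale, against 2 and 0.27 without that library. Fibroblast markers differed in level and direction, with 5 called higher and 4 lower of 12 tested. Over all genes tested, 25.9% were called higher and 25.0% lower. Vim (vimentin) went from 2691 to 4297 CPM and Pdgfra from 223 to 111 CPM. Dcn (decorin), another marker of many fibroblasts, was listed at 0.757 and 0.541 CPM. The 4 kidney tubule markers with a symbol summed to 3.71 to 5.62 CPM over the 6 libraries, and the 7 epithelium and skin markers to 1352 to 1734 CPM.

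Many genes moved, and most of them by little. Of 14601 genes, 7429 were called at an adjusted p under 0.05 (50.9%), 3780 higher with TGFB1 (25.9%) and 3649 lower (25.0%). At least 2-fold changes were called for 608 higher (4.16%) and 833 lower genes (5.71%), and at least 4-fold changes for 173 and 192. Of the calls, 4265 (57.4%) were smaller than 1.5-fold. The median log2 fold change over all genes was 0.01, and the median of its size was 0.33. The 3 libraries of one group lay wholly beyond the 3 of the other in 8183 genes (56.0%). Without vehicle replicate 1 the counts were 3378 higher and 3255 lower, and at 2-fold 567 and 813.

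**Figure D1:**
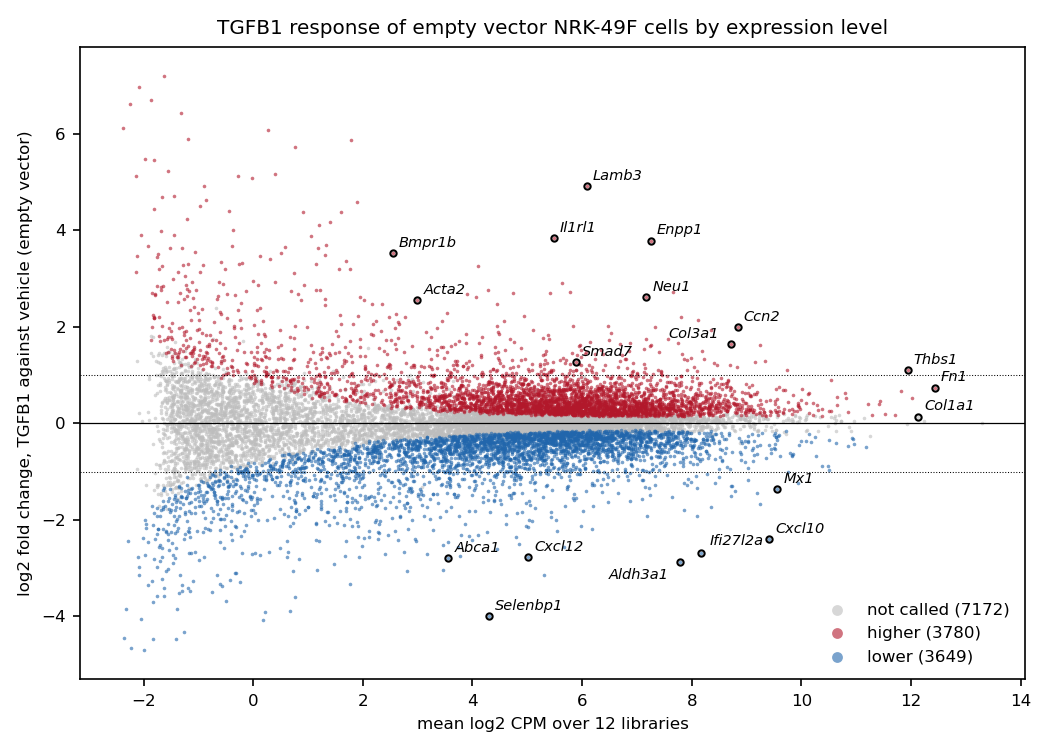
Each point is 1 of 14601 tested genes, placed by its mean log2 CPM over the 12 libraries (x axis) and its log2 fold change with TGFB1 against vehicle in empty vector cells (y axis), with called genes in red (3780 higher) and blue (3649 lower) and dotted lines at 2-fold. Lamb3 and Enpp1 rose far. Col1a1 at the right edge lies close to 0, whereas Thbs1 lies above the 2-fold line. Of 78 genes with a mean of 1000 CPM or more, 31 rose and 18 fell, 1 each way by at least 2-fold.

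The direction of the response shifted with the level of the genes. Among 2170 genes with a mean level under 1 CPM, 22.9% were called, 198 higher and 298 lower, and 95% of those calls were at least 2-fold. Between 1 and 10 CPM, 484 of 3020 genes rose and 837 fell. From 10 to 100 CPM the calls were nearly even, 2077 higher and 1925 lower of 6965. At 100 to 1000 CPM the balance turned, with 990 higher and 571 lower of 2368 genes, and only 6.85% of the calls reached 2-fold. Among the 78 genes at 1000 CPM or more, 31 rose and 18 fell. The median standard error of the log2 fold change fell from 0.49 in the lowest class to 0.07 in the 2 highest, so a change of a given small size was easier to call at high levels. The 10 genes with the most counts in each library took 4.28 to 4.47% of its counts with vehicle and 5.14 to 5.6% with TGFB1.

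**Figure D2:**
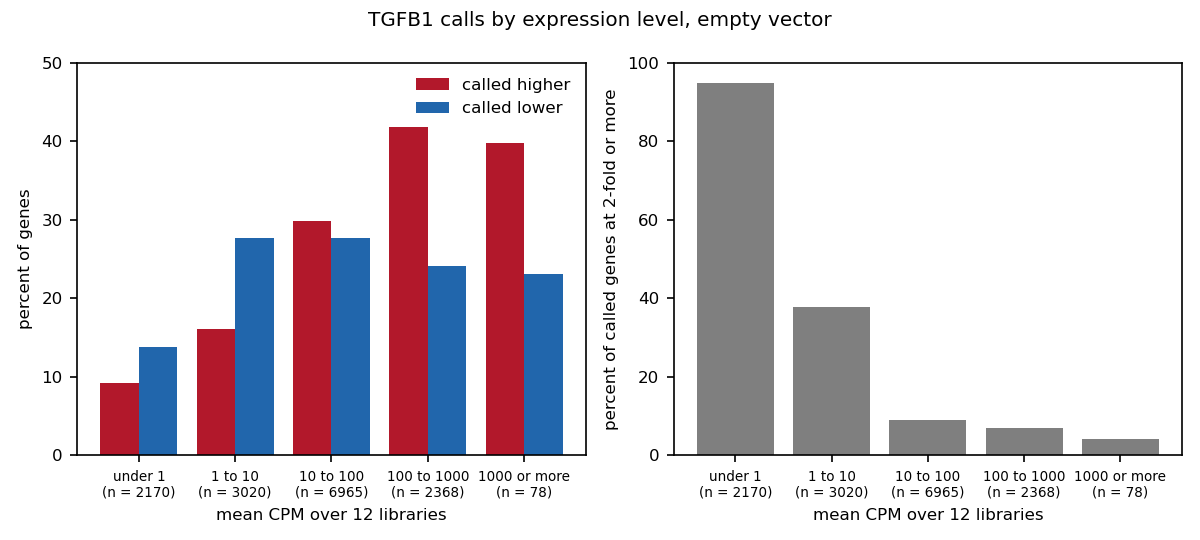
The left panel gives the percentage of genes called higher (red) and lower (blue) with TGFB1 in 5 classes of mean CPM over the 12 libraries, and the right panel the percentage of called genes with at least a 2-fold change. Falls outnumber rises below 10 CPM, rises outnumber falls above 100 CPM, and large changes become rarer from left to right.

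Annotated gene classes differed as well, set against 25.9% higher and 25.0% lower over all genes. Of 12797 protein-coding genes 3568 rose (27.9%) and 3287 fell (25.7%). Of 1267 long noncoding RNA genes 144 rose (11.4%) and 292 fell (23.0%), with a median log2 fold change of -0.26. Their median standard error was 0.35, against 0.09 for protein-coding genes. Genes under 10 CPM also held more falls than rises, and the part of level in these counts was not tested. Of 78 small nucleolar RNA genes 10 rose (12.8%) and 0 fell. Among 6 microRNA genes tested Mir3074 went from 5.93 to 1.35 CPM (log2 fold change -2.11). Both mitochondrial ribosomal RNA genes were called lower, by 1.16 and 1.09 on the log2 scale, while 2 of the 13 mitochondrial messenger RNAs were called higher and 0 lower (0 to 4 higher when 1 library was left out). Poly(A) libraries capture such RNAs in part, and whether that share differed between the libraries was not tested. By symbol, 22 of 32 kinesin genes and 28 of 47 proteasome subunit genes rose, and 2 and 6 fell. Without TGFB1 replicate 3 the proteasome count was 17 and 6. All 8 tested guanylate-binding protein genes fell (median -1.88), as did 9 of 16 chemokine genes and 16 of 35 ABC transporter genes. These classes and genes were picked out after their values were seen.

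Of the genes most used to read a fibroblast's answer to TGFB1, some rose strongly, others by less than 2-fold, and 2 were not called. Ccn2, the connective tissue growth factor gene, stood at 302, 327 and 235 CPM with vehicle and 1199, 985 and 1266 CPM with TGFB1. Acta2, the smooth muscle actin that marks myofibroblasts, stood at 3.45, 4.08 and 3.51 CPM with vehicle and 21.5, 17.8 and 25.1 CPM with TGFB1. For both genes every TGFB1 library lay above every vehicle library, with rises of 4-fold and 5.85-fold (edgeR adjusted p = 1.21e-10 and 1.86e-12).

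Of the fibrillar collagen genes in this group 1 was called and 1 was not. Col3a1, the type III chain, stood at 295, 266 and 229.8 CPM with vehicle and 992, 618 and 865 CPM with TGFB1, a 3.13-fold rise with no overlap (edgeR adjusted p = 0.000102). Col1a1, a chain of type I collagen, stood at 5727, 5145 and 4726 CPM with vehicle and 6636, 5226 and 5341 CPM with TGFB1. Its groups overlapped and it was not called (log2 fold change 0.14, SE 0.14, edgeR adjusted p = 0.424). Fn1, the adhesive glycoprotein fibronectin, stood at 4782, 4277 and 4336 CPM with vehicle and 8865, 7292 and 6247 CPM with TGFB1, and rose 1.67-fold without overlap.

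Feedback genes rose too. Smad7, which blocks the receptor, stood at 36.5 ± 4.28 CPM with vehicle and 88.7 ± 4.70 CPM with TGFB1 (SD, n = 3), a 2.42-fold rise, and Tgfb1 itself at 105 ± 6.07 CPM with vehicle and 185 ± 4.90 CPM with TGFB1, a 1.76-fold rise. Cdkn1a, the cell cycle inhibitor p21, stood at 189.8, 168 and 189 CPM with vehicle and 169, 160.1 and 179 CPM with TGFB1, with overlapping groups (log2 fold change -0.11, edgeR adjusted p = 0.181). Without TGFB1 replicate 3 Cdkn1a was called lower (log2 fold change -0.17, edgeR adjusted p = 0.0307). The endogenous Hdac1 gene, whose human counterpart the other plasmid carries, rose from 209.7 to 267 CPM, by 0.35 on the log2 scale (edgeR adjusted p = 0.00123).

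**Figure D3:**
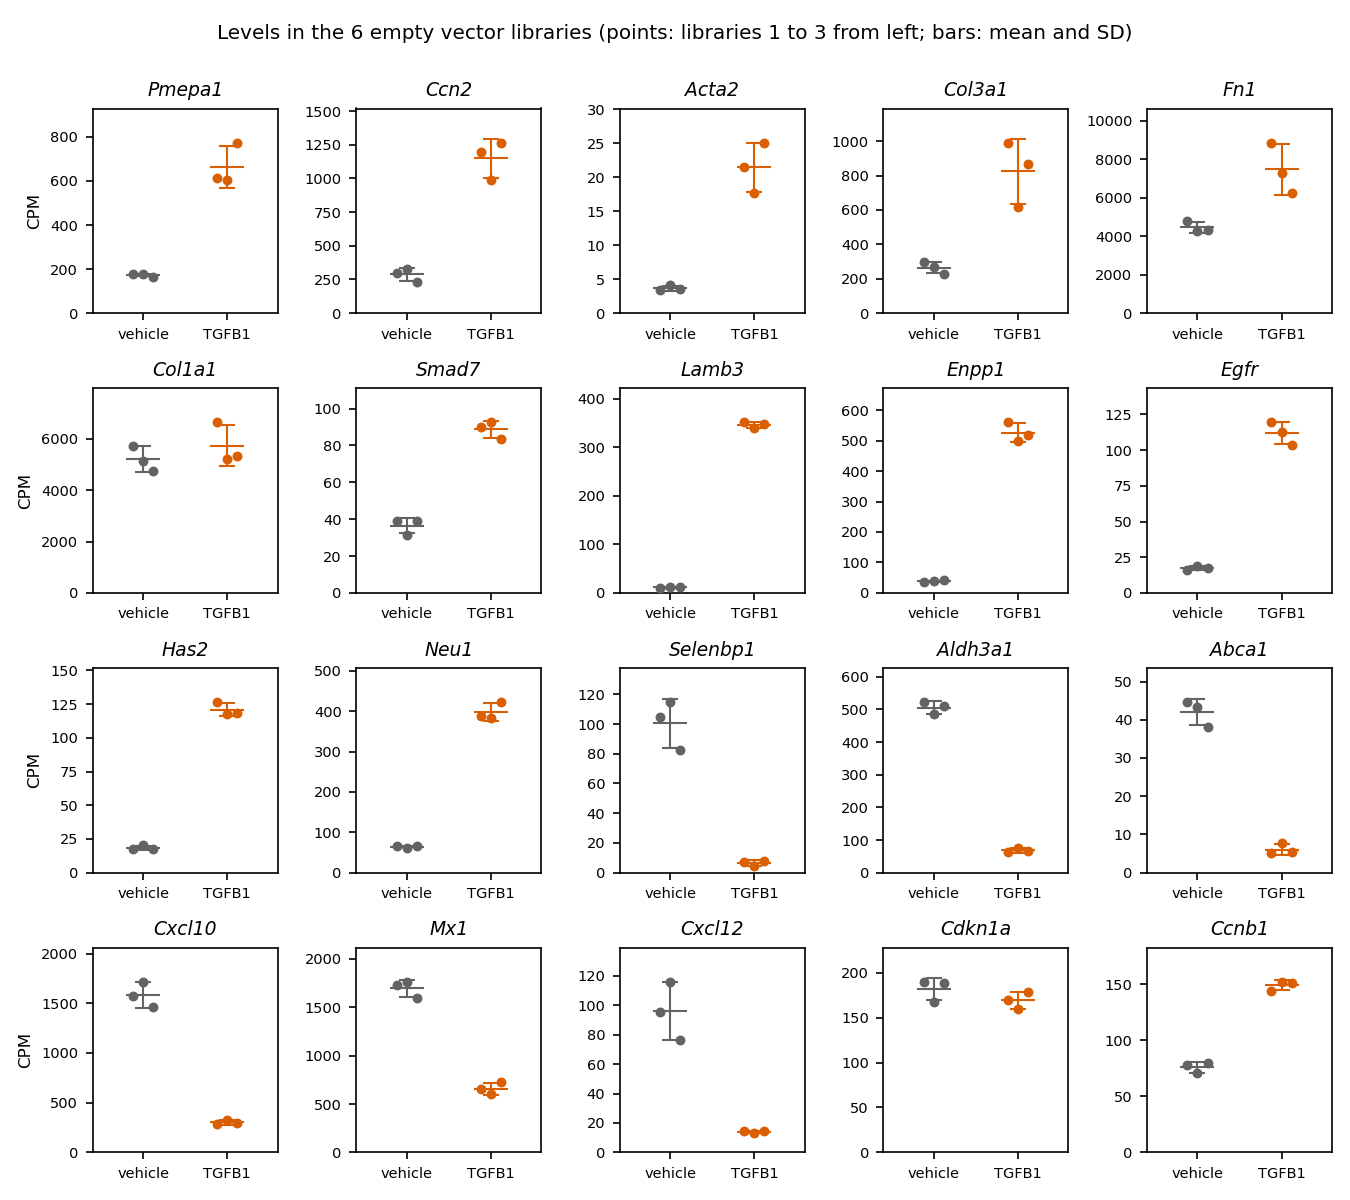
Each panel shows 1 gene in the 6 empty vector libraries, with CPM on a y axis that starts at 0, vehicle in grey and TGFB1 in orange, points for libraries and bars for the mean and SD. The points of the 2 groups are apart for every gene drawn except Col1a1 and Cdkn1a.

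The 12 largest rises among genes with a symbol used once, groups that did not overlap and a mean log2 CPM of at least 2 were led by surface and matrix genes. Lamb3, the beta chain of laminin-332, a basement membrane protein of epithelia, stood at 10.5, 11.6 and 12.4 CPM with vehicle and 351, 339 and 348 CPM with TGFB1, a 30.1-fold rise (edgeR adjusted p = 2.69e-20). Il1rl1, the receptor of interleukin 33, went from 8.53 to 123 CPM (14.3-fold), and Enpp1, an enzyme that makes pyrophosphate, from 38.0 to 526 CPM (13.8-fold). All 3 were low in each vehicle library and high in each TGFB1 library. Next came Bmpr1b, a type I receptor of bone morphogenetic proteins (3.52 on the log2 scale), Tnfaip6, a hyaluronan-binding protein (3.25), the collagen receptor chain Itga2 (2.92), the hyaluronan synthase Has2 (2.72) and the matrix protein Fbln2 (2.72). Fam167a (2.70), the epidermal growth factor receptor gene Egfr (2.69), the semaphorin Sema7a (2.68) and periostin, Postn (2.62), closed the set.

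The 12 largest falls by the same rule held genes of lipid metabolism, detoxification and immunity. Selenbp1, a selenium-binding protein, stood at 105, 115 and 82.4 CPM with vehicle and 6.92, 4.19 and 7.94 CPM with TGFB1, a 15.9-fold fall (edgeR adjusted p = 4.17e-09). Aldh3a1, an aldehyde dehydrogenase, went from 506 to 68.6 CPM (7.37-fold lower), and Ifi27l2a, an interferon-induced gene, from 1037 to 161 CPM (6.45-fold lower). In each case the highest TGFB1 library lay below the lowest vehicle library. The others were Acod1, which makes itaconate (-3.13 on the log2 scale), the cytokine receptor chain Il20rb (-3.06), the secreted phospholipase Pla2g2a (-3.03) and the cholesterol exporter Abca1 (-2.79). The chemokine Cxcl12 (-2.78), the ETS factor Etv1 (-2.74), Gbp7 (-2.70), the collagen Col14a1 (-2.66) and the semaphorin Sema6a (-2.60) also fell.

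Measured in CPM instead of fold change, the largest rises were those of genes with many counts in both groups. Thbs1, thrombospondin 1, which can release latent TGFB1, went from 2778 to 5959.8 CPM. After it came Fn1, Vim, the cytoskeletal actin Actg1 (3575 to 5129.6 CPM), the type I collagen chain Col1a2 (2804 to 3891 CPM, log2 fold change 0.47) and the tubulin Tuba1b (1007 to 1879.8 CPM). The largest losses were in Cxcl10, a chemokine induced by interferon (1584 to 302 CPM), the complement protease C1r (1896 to 808 CPM), the antiviral gene Mx1 (1699 to 659.9 CPM), progranulin, Grn (2194 to 1184 CPM), and the ferritin chain Fth1 (2053 to 1045 CPM).

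By pathway, 1217 genes of 49 lists were tested, and each list was read against the shares of all genes, 25.9% higher and 25.0% lower. Members and lists were chosen with earlier results of these data known, so the counts and share tests below describe the chosen genes only. In 5 lists most members were called and all calls had the same direction: mitosis, DNA replication and cholesterol synthesis genes rose, and interferon-stimulated and antigen processing genes fell. Collagen chains, integrins and proteinases were called often, but in both directions. Nuclear genes of oxidative phosphorylation were called seldom, 13 higher and 3 lower of 73, although without TGFB1 replicate 3 they numbered 7 and 10, and leaving out any 1 library gave 7 to 17 and 1 to 10. Up to the comparison with HDAC1 cells, every gene whose log2 fold change is given without a p-value passed the test.

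**Figure D4:**
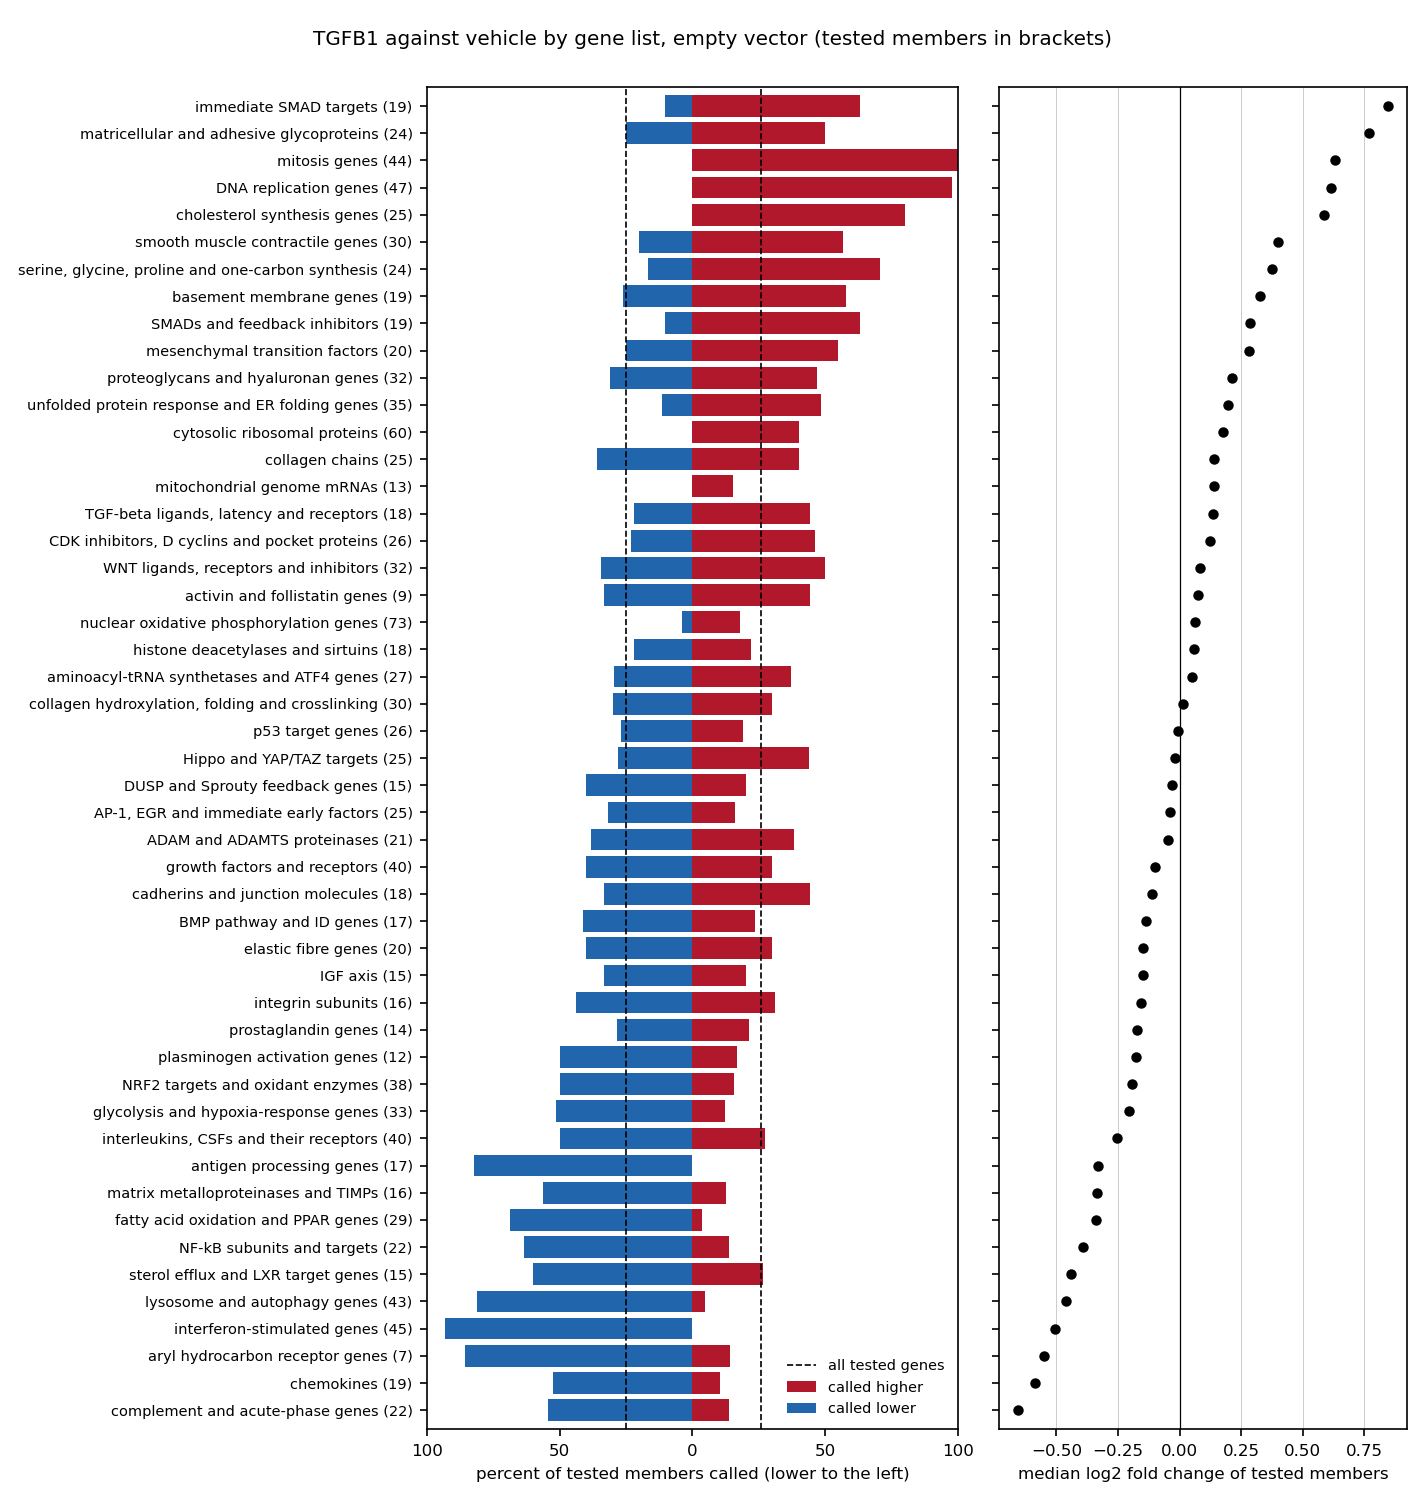
The left panel gives, for each of 49 lists, the percentage of tested members called higher (red, to the right) and lower (blue, to the left), with dashed lines at the 25.9% and 25.0% of all genes, and the right panel the median log2 fold change of the tested members. Immediate SMAD targets have the highest median and complement genes the lowest, and mitosis genes are the only list with every member called in 1 direction.

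Within the TGF-beta pathway the ligands rose and some of the receptors fell. Of 18 ligand, latency and receptor genes, 8 rose, 4 fell and 6 were not called (median 0.14). All 3 ligand genes rose: Tgfb1, Tgfb2 from 35.4 to 74.0 CPM and Tgfb3 from 127 to 265 CPM. Tgfbr2, the receptor that binds the ligand first, fell from 133 to 79.7 CPM, and the co-receptor Tgfbr3 from 112 to 46.1 CPM, while the type I receptor Acvr1 rose from 29.0 to 58.9 CPM. Ltbp1, which tethers latent ligand to matrix, and the integrin chain Itgav were not called (log2 fold changes 0.11 and 0.10, edgeR adjusted p = 0.113 and 0.272).

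Inside the cell the brakes on the pathway were mostly higher. Of 19 SMADs and inhibitors, 12 rose, 2 fell and 5 were not called (median 0.29). Pmepa1, which holds back receptor SMADs, stood at 176, 177 and 166 CPM with vehicle and 615, 604 and 774 CPM with TGFB1, without overlap. Skil, a SMAD corepressor, rose by 1.06 and the ubiquitin ligase gene Smurf1 by 0.75 on the log2 scale, while Nedd4l, another ligase, and Bambi, a pseudoreceptor, fell (-0.79 and -0.91). Smad4, the shared partner, stood at 95.9 CPM with vehicle and 92.8 CPM with TGFB1 (log2 fold change -0.05, edgeR adjusted p = 0.564).

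Of 19 immediate SMAD targets, 12 rose, 2 fell and 5 were not called, with the highest median of any list (0.85). Pmepa1, Skil and Ccn2 were joined by Lefty1, a secreted inhibitor of the related ligand Nodal, which went from 0.716 to 8.23 CPM, and by the repressor Bhlhe40 (0.85). Jun, an AP-1 subunit, and Angptl4, a lipase inhibitor, were the 2 that fell (-0.88 and -2.12). Klf10, an early gene of the response, was not called at 24 hours (log2 fold change 0.12, edgeR adjusted p = 0.27). The genes of this list together took 0.250% ± 0.00638 (SD, n = 3) with vehicle and 0.546% ± 0.0279 with TGFB1 of all counts (exact two-sided permutation test, p = 0.1, the smallest that 3 against 3 allows).

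The promoter of Ccn2 is shown because it holds letters known from SMAD and YAP signalling. It is the 250 bases before the RefSeq gene start in the rat build GRCr8 (chr1:22624615-22624864, minus strand), read 5′ to 3′ along the gene. Capitals mark CAGAC, the SMAD letters, and GGAATG, the letters bound by TEAD factors, partners of YAP.
Ccn2: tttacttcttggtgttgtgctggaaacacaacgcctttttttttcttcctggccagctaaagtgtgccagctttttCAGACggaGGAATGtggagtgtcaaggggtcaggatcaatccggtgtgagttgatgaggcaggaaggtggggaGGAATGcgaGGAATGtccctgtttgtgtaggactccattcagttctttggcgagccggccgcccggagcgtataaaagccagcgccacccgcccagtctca
The single CAGAC lies 170 to 174 bases before the start, and the 3 copies of GGAATG begin 166, 101 and 92 bases before it. On either strand, CAGAC was in 3853 of 9365 (41.1%) of the promoters of tested genes, in 161 of 332 (48.5%) of those of genes at least 2-fold higher and in 175 of 418 (41.9%) of those at least 2-fold lower. GGAATG was in 915 of 9365 (9.77%), 43 of 332 (13%) and 48 of 418 (11.5%). Short motifs of this kind occur in many promoters, and a match is a description of the letters only. The AP-1 letters TGANTCA were in 425 of 9365 (4.54%), 28 of 332 (8.43%) and 40 of 418 (9.57%). The palindrome GTCTAGAC was in 18 of 9365 (0.192%) of all and 2 of 332 (0.602%) of the higher genes, and the CArG box, bound by serum response factor, in 115 of 9365 (1.23%) and 3 of 332 (0.904%).

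Related ligands of the family changed in part. Of 17 BMP pathway genes 4 rose and 7 fell. Bmp2 went from 179 to 329 CPM, whereas the secreted BMP antagonists Nbl1, Grem1 and Chrd all fell (-1.53, -0.64 and -0.84). Id3, a BMP target, was not called (log2 fold change -0.12, edgeR adjusted p = 0.192). Without TGFB1 replicate 3 Id3 was called lower (log2 fold change -0.24, edgeR adjusted p = 0.00166). Inhba, the activin A subunit, rose from 63.7 to 179.9 CPM and its binding protein Fst from 4.81 to 16.5 CPM, while Inhbb, the activin B subunit, fell from 27.9 to 7.34 CPM. Each of these 3 genes had groups that did not overlap.

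Growth factor and WNT genes were reshaped without a common direction. Of 32 WNT genes, 16 rose, 11 fell and 5 were not called (median 0.08). Of the 4 transcription factors that carry the WNT signal in the nucleus, 3 rose, Lef1 from 23.7 to 64.1 CPM, Tcf7 from 5.87 to 25.6 CPM and Tcf7l1 from 15.5 to 20.7 CPM, and Tcf7l2 fell from 61.3 to 48.8 CPM. Ccn4, a WNT-induced matricellular gene (1.35), and the receptor Fzd1 rose (1.16). The ligand gene Wnt2 stood at 0.133, 0.106 and 0.107 CPM with vehicle and 8.09, 8.43 and 7.94 CPM with TGFB1, so it was near the limit of detection in every vehicle library and measurable in every TGFB1 library. The receptor Fzd7, the co-receptor Lrp5 and the WNT amplifier Rspo3 fell (-1.29, -0.95 and -2.80).

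Of 40 growth factor and receptor genes, 12 rose, 16 fell and 12 were not called. Egfr stood at 16, 18.9 and 17.1 CPM with vehicle and 119, 113 and 104 CPM with TGFB1, without overlap, a 6.47-fold rise. One of its ligands, Hbegf, rose (2.02), and another, Btc, fell (-2.03). The platelet-derived growth factor chain Pdgfa rose from 41.3 to 82.6 CPM. The endothelin receptor Ednra fell from 49.3 to 11.6 CPM, and Gas6, a ligand of the kinase Axl, from 146 to 41.3 CPM. Among 15 genes of the insulin-like growth factor axis, Igfbp5, a binding protein, and Pappa, a protease that cleaves such proteins, rose (2.12 and 4.17), and Igfbp4 and Igfbp6 fell (-1.04 and -0.96).

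YAP/TAZ targets and immediate early genes gave mixed counts. Of 25 Hippo genes 11 rose and 7 fell (median -0.02). Ccn2 and the scaffold Ajuba (0.82) were up, the kinase Axl (-0.53) was down, and Yap1 was not called (log2 fold change -0.05, edgeR adjusted p = 0.549). Of 25 immediate early factors 4 rose and 8 fell. Myc, a driver of growth, rose from 44.6 to 112 CPM and Junb from 167 to 297 CPM, while Maf fell from 83.7 to 14.7 CPM and Klf4 from 163 to 60.4 CPM. Of 15 genes that brake MAP kinases 6 fell, led by Spry1 (-2.18) and the phosphatase Dusp1 (-1.67), and 3 rose, Dusp4 (1.14), Dusp7 (0.97) and Dusp6 (0.33).

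Collagen genes were called in both directions. Of 25 collagen chains, 10 rose, 9 fell and 6 were not called (median 0.14). The fibril-regulating chain Col5a2 rose from 443 to 1087 CPM, Col5a3 from 16.6 to 35.6 CPM and the anchoring fibril chain Col7a1 from 0.423 to 9.35 CPM. Among type VI chains Col6a3 rose (2.22), whereas Col6a1 and Col6a2 fell (-0.52 and -0.39). Col4a5, a basement membrane chain, fell from 58.1 to 24.5 CPM. The list took 1.16% ± 0.0772 (SD, n = 3) with vehicle and 1.39% ± 0.163 with TGFB1 of all counts, with groups that did not overlap (exact two-sided permutation test, p = 0.1).

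Enzymes that modify collagen divided evenly, 9 higher and 9 lower of 30. The crosslinking oxidase Lox stood at 175, 167 and 151 CPM with vehicle and 445, 381 and 392 CPM with TGFB1, without overlap. Its relative Loxl1 moved the other way, at 300.4, 238 and 275 CPM with vehicle and 97.8, 88.2 and 103 CPM with TGFB1, again without overlap. Loxl2 rose (0.59), Loxl3 and Loxl4 fell (-1.34 and -0.40), and the lysyl hydroxylase Plod2 rose (1.2). The folding enzyme P4hb was not called (log2 fold change 0.05, edgeR adjusted p = 0.559).

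Basement membrane and matricellular genes leaned upward. Of 19 basement membrane genes, 11 rose, 5 fell and 3 were not called. Their share of all counts was 0.359% ± 0.0140 (SD, n = 3) with vehicle and 0.389% ± 0.0419 with TGFB1. These groups overlapped (exact two-sided permutation test, p = 0.4). Besides Lamb3, the linkers Nid1 and Nid2 (1.14 and 0.86), Fbln1 (1.11) and the peroxidase Pxdn (1.11) rose, while Lamb2, Lamc1 and agrin, Agrn, fell (-1.10, -0.44 and -0.74). Of 24 matricellular genes, 12 rose, 6 fell and 6 were not called (median 0.77), and the list took 1.51% ± 0.0523 (SD, n = 3) with vehicle and 2.21% ± 0.187 with TGFB1 of all counts (exact two-sided permutation test, p = 0.1). Most of that gain lay in Fn1 and Thbs1. The list sum went from 14840 to 22633 CPM, Fn1 from 4465 to 7468 CPM and Thbs1 from 2778 to 5959.8 CPM. Tenascin C, Tnc, rose from 124 to 263 CPM and Srpx2 from 0.394 to 23.0 CPM, whereas Ecm1 and Ccn5 fell (-1.09 and -1.28). Osteopontin, Spp1, stood at 4078 CPM with vehicle and 4065 CPM with TGFB1 (edgeR adjusted p = 0.966).

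Hyaluronan and proteoglycan genes were called in both directions, with more rises. Of 32 genes, 15 rose, 10 fell and 7 were not called. Has2 stood at 17.8, 20.2 and 17.3 CPM with vehicle and 127, 117 and 119 CPM with TGFB1, without overlap, a 6.59-fold rise. Chsy1, which builds chondroitin chains, rose 4.01-fold, the sulfotransferase Chst11 2.72-fold, and Ugdh, which makes the sugar donor for these chains, 1.5-fold. Other synthesis enzymes fell, the hyaluronan synthase Has1 from 1.08 to 0.435 CPM, Xylt1, which starts the chains, from 42.2 to 30.2 CPM and Chpf, which helps to extend chondroitin, from 212 to 182 CPM. Chpf was not called without vehicle replicate 1 or TGFB1 replicate 2 (adjusted p of up to 0.0772). The hyaluronidase Hyal1 fell from 5.01 to 1.2 CPM. Elastic fibre genes were mixed, 6 higher and 8 lower of 20, with Fbln2 up (6.58-fold) and Fbln5, which assembles elastin, down (3.06-fold).

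Among matrix-degrading enzymes, metalloproteinases were mostly lower and ADAM proteinases were even. Of 16 metalloproteinase and inhibitor genes, 2 rose, 9 fell and 5 were not called. The 2 that rose were the membrane-bound proteinase Mmp14, from 229 to 397 CPM, and the inhibitor Timp3, from 67.5 to 165 CPM. Mmp3, Mmp9, Mmp19 and Mmp28 fell (-1.31, -0.71, -0.78 and -1.25), and Timp1 was not called (log2 fold change 0.01, edgeR adjusted p = 0.9). In the ADAM family 8 of 21 rose and 8 fell, and the list took 0.119% ± 0.00167 (SD, n = 3) with vehicle and 0.141% ± 0.0122 with TGFB1 of all counts (exact two-sided permutation test, p = 0.1). That gain was close to the gain of 1 gene: the list sum went from 1166 to 1440 CPM and Adam12 from 123 to 388 CPM. Adam12 and Adamts12 rose (1.66 and 1.45) while Adam15, Adam17 and Adam33 fell (-0.89, -0.68 and -1.93). Of 12 plasminogen activation genes 2 rose, among them the receptor Plaur (1.04), and 6 fell, among them the activator Plat (-0.52) and the inhibitors Serpinb2 (-2.43) and Serpine2 (-0.67).

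Adhesion genes were called in both directions. Of 16 integrin subunits, 5 rose and 7 fell. Of the collagen-binding chains, Itga1 and Itga2 rose (2.02 and 2.92), Itga10 fell (-1.29) and Itga11 was not called (log2 fold change -0.35, edgeR adjusted p = 0.107). Without TGFB1 replicate 1 it was called lower (log2 fold change -0.54, edgeR adjusted p = 0.017). Their partner Itgb1 rose (0.55), as did the fibronectin-binding Itga5 (0.57) and Itgb3 (1.56). The laminin-binding chains Itga3, Itga6, Itga7 and Itgb4 fell (-1.51, -0.39, -1.34 and -2.77). Among cadherins and junction genes, N-cadherin, Cdh2, and Ncam1 rose (1.09 and 1.63), and the leukocyte adhesion molecules Icam1 and Vcam1 fell (-1.21 and -1.44).

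Of 30 smooth muscle contractile genes, 17 rose, 6 fell and 7 were not called (median 0.40). At least 2-fold changes were called for 4 higher and 4 lower members. Besides Acta2, Smtn rose from 38.2 to 82.5 CPM, the tropomyosin Tpm1 from 308 to 575 CPM and the actin crosslinker Actn1 from 430.00 to 638 CPM. The smooth muscle myosin Myh11 fell from 21.8 to 5.47 CPM, and another tropomyosin, Tpm2, from 676 to 474 CPM. At low levels Mylk, Lmod1 and Ppp1r14a fell as well (-1.81, -3.27 and -1.55). Tagln, at 1.14 CPM with vehicle and 1.67 CPM with TGFB1, and Des were not called (log2 fold changes 0.54 and 0.45, edgeR adjusted p = 0.168 and 0.173). Transcription factors of the mesenchymal state were also divided, 11 higher and 5 lower of 20. Sox4, Sox11 and Runx1 rose (0.98, 1.75 and 1.25), Snai2 and Prrx1 fell (-1.52 and -0.69), and Zeb2 was not called (log2 fold change -0.15, edgeR adjusted p = 0.0831). Without TGFB1 replicate 1 Zeb2 was called lower (log2 fold change -0.21, edgeR adjusted p = 0.0406).

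Genes that interferon stimulates formed the most uniform block of falls. Of 45 tested, 42 fell and the other 3 missed the threshold (median -0.51). Rsad2, which makes an antiviral nucleotide, stood at 1097, 1116 and 1048 CPM with vehicle and 335, 393 and 301 CPM with TGFB1. Gbp2, a guanylate-binding protein, stood at 641, 686 and 591 CPM with vehicle and 168, 153 and 183 CPM with TGFB1. Oasl, of the oligoadenylate synthetase family, fell from 793 to 299 CPM, Ifit1 from 209.9 to 93.0 CPM and Ifit3, which like Ifit1 restrains viral RNA, from 279.7 to 161 CPM. For Rsad2 and Gbp2 all TGFB1 libraries lay below all vehicle libraries. Among those not called were Ifi27 (log2 fold change 0.05, edgeR adjusted p = 0.599) and Bst2 (log2 fold change -0.13, edgeR adjusted p = 0.254). The list took 2.52% ± 0.0558 (SD, n = 3) with vehicle and 1.56% ± 0.0294 with TGFB1 of all counts (exact two-sided permutation test, p = 0.1).

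Promoters of Cxcl10 and Ifit3 are shown because these genes fell with the interferon block and carry GAAA, any 2 bases and GAAA again, the core of the response element bound by interferon-activated factors. They are the 250 bases before the RefSeq gene start in GRCr8 (chr14:15988816-15989065, plus strand, and chr1:241527076-241527325, plus strand), 5′ to 3′ along the gene, with that motif on either strand in capitals.
Cxcl10: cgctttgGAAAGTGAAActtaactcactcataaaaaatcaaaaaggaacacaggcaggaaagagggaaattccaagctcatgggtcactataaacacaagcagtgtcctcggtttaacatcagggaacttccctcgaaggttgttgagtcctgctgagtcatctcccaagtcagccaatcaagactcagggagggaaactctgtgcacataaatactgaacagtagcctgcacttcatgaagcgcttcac
Ifit3: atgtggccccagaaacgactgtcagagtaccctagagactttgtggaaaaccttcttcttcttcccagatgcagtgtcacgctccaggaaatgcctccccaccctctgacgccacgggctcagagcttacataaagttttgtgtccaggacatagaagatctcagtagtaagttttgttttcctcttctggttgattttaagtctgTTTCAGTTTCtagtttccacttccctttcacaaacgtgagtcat
In Cxcl10 the motif lies 234 to 243 bases before the start, and in Ifit3 it lies on the opposite strand, 35 to 44 bases before it. It was in 22 of 34 (64.7%) of the list's promoters, in 251 of 9365 (2.68%) of those of all tested genes, in 32 of 418 (7.66%) of those of genes at least 2-fold lower and in 5 of 332 (1.51%) of those at least 2-fold higher. Interferon-stimulated genes are defined in part by this element, so its share in the list is background.

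Other immune lists fell with it. Of 17 antigen processing genes, 14 fell and 0 rose, among them Nlrc5, an activator of MHC class I genes (-0.91), the peptide transporter Tap2 (-0.41) and Cd74 (-0.74). Of those 14, Psmb8 and Psmb10 each missed the call in 4 of the 6 fits that left out 1 library, and Psme1 in 5. Of 22 NF-kB genes 14 fell and 3 rose. Irf1 and Sod2 were lower (-0.86 and -0.89), Relt and Ptgs2 higher (1.79 and 1.34), and the subunit gene Rela was not called (log2 fold change -0.13, edgeR adjusted p = 0.0725). Without TGFB1 replicate 1 Rela was called lower (log2 fold change -0.18, edgeR adjusted p = 0.025).

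Secreted immune mediators also leaned downward. Of 19 chemokine genes and receptors, 2 rose, 10 fell and 7 were not called. The count of rises was 1 without any 1 of vehicle replicates 1 and 3 and TGFB1 replicates 1 and 3. Cxcl10 stood at 1577, 1715 and 1459.6 CPM with vehicle and 281, 325 and 299 CPM with TGFB1, a 5.25-fold fall without overlap. Cxcl11, Cxcl13 and Ccl20 fell too (-0.88, -1.51 and -4.07), the scavenging receptor Ackr4 rose (1.43), and the monocyte attractant Ccl2 was not called (log2 fold change 0.17, edgeR adjusted p = 0.0786). Without TGFB1 replicate 2 Ccl2 was called higher (log2 fold change 0.23, edgeR adjusted p = 0.0279). Of 40 interleukin, CSF and receptor genes 20 fell, including Csf1 from 705 to 372 CPM and Il15 from 18.5 to 7.75 CPM, and 11 rose, including Tnfrsf12a from 161 to 274 CPM. Complement and acute-phase genes had the lowest median of all lists (-0.66), with 12 of 22 lower. Its proteases C1r and C1s fell (-1.23 and -1.80), and Il6 and the complement inhibitor Cd55 rose (1.10 and 0.76). In prostaglandin synthesis Ptgs1 fell (-2.47) while the inducible Ptgs2 rose.

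Cell division genes rose as a block. All 44 mitosis genes were called higher (median 0.63), and so were 46 of 47 DNA replication genes (median 0.62), with Rfc1, a clamp loader subunit, the 1 not called (log2 fold change -0.09, edgeR adjusted p = 0.258). The mitotic cyclin Ccnb1 stood at 77.7, 70.7 and 80.0 CPM with vehicle and 144, 152 and 152 CPM with TGFB1. Kif11, the motor that parts the spindle poles, rose from 107 to 218 CPM, and the kinase Plk1 from 68.7 to 129 CPM. Ccnb1 libraries did not overlap between the groups. Among replication genes the loading factors Cdc6, Cdt1 and Orc1 rose (1.08, 0.91 and 1.18), as did the helicase subunits Mcm3 and Mcm7 (0.80 and 0.83). The share of counts was 0.353% ± 0.0186 (SD, n = 3) with vehicle and 0.523% ± 0.0222 with TGFB1 for mitosis and 0.351% ± 0.0216 (SD, n = 3) with vehicle and 0.509% ± 0.00826 with TGFB1 for replication genes (exact two-sided permutation test, p = 0.1 for each). In bulk RNA, more dividing cells and more of these transcripts per dividing cell cannot be told apart.

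Regulators of the cycle were less uniform, 12 higher and 6 lower of 26. Cdk2, Cdk4 and E2f1 rose (0.70, 0.55 and 0.58), and the inhibitor Cdkn1b and the pocket protein Rbl2 fell (-0.72 and -0.80). E2f1 is 1 of 10 list symbols shared by 2 gene identifiers, of which the one with the higher level was used. Of 26 p53 targets 5 rose, 7 fell and 14 were not called (median -0.01).

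The promoter of Cdc20, an activator of the anaphase-promoting complex, is shown because TTTGAA, the letters of the cell cycle homology region, recurred before mitosis genes. Cdc20 rose from 42.8 to 70.4 CPM (log2 fold change 0.71), and it was chosen, as Ifit3 was, after its values were seen. The 250 bases come from RefSeq, build GRCr8 (chr5:137255800-137256049, minus strand), 5′ to 3′ along the gene, with TTTGAA in capitals.
Cdc20: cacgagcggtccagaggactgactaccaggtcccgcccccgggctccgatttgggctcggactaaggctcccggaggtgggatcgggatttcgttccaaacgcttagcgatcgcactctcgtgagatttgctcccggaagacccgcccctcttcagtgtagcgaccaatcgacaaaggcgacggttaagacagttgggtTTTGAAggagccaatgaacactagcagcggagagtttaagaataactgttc
It lies 46 to 51 bases before the start. On either strand it was in 17 of 36 (47.2%) of mitosis promoters, in 3 of 38 (7.89%) of replication promoters and in 971 of 9365 (10.4%) of all.

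Lipid genes moved in opposite directions for synthesis and disposal. Of 25 cholesterol synthesis genes 20 rose, 0 fell and 5 were not called (median 0.59). Msmo1, a sterol oxidase of the pathway, stood at 159, 164 and 158 CPM with vehicle and 433, 439.7 and 486 CPM with TGFB1, without overlap. Cyp51 and Idi1 rose (1.24 and 1.13), and Srebf2, the factor that controls the pathway, was not called (log2 fold change 0.03, edgeR adjusted p = 0.855). Of 15 sterol efflux and LXR genes 9 fell. Abca1 stood at 44.6, 43.5 and 38.1 CPM with vehicle and 5.11, 7.66 and 5.36 CPM with TGFB1, a 6.92-fold fall without overlap. The others included, among those that rose, the fatty acid synthesis genes Scd, Fasn and Acaca (1.23, 0.65 and 0.44). Of 29 fatty acid oxidation and PPAR genes 20 fell, among them Acaa2, Hadh and Hadha (-0.70, -0.65 and -0.40), and only Pparg, at 0.222 to 1.45 CPM, rose. Without vehicle replicate 2 or 3 the count of rises was 3 or 2.

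Glucose and amino acid genes differed. Of 33 glycolysis and hypoxia genes 17 fell and 4 rose. Ndrg1 fell from 599 to 181 CPM, the carbonic anhydrase Car9 from 139.7 to 72.2 CPM and the hexokinase Hk1 from 262 to 165 CPM, while the glucose transporter Slc2a3 and Pfkfb4 rose (0.72 and 1.49). Gapdh was not called (log2 fold change -0.08, edgeR adjusted p = 0.415). Of 24 genes for serine, glycine, proline and one-carbon units 17 rose (median 0.37). Pycr1, the last step to proline, an amino acid abundant in collagen, rose from 12.4 to 32.0 CPM, Shmt2 from 114 to 203 CPM and Mthfd2 from 111 to 183 CPM. Aldh4a1, which breaks proline down, fell (-1.02).

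Genes of protein synthesis and folding shifted by small amounts. Of 60 cytosolic ribosomal protein genes 24 rose and 0 fell (median 0.17), but only 10 rose without TGFB1 replicate 3. Their share of counts was 3.02% ± 0.0954 (SD, n = 3) with vehicle and 3.29% ± 0.386 with TGFB1 (exact two-sided permutation test, p = 0.3). Of 35 unfolded protein response genes 17 rose, among them Creb3l1, a factor that drives collagen secretion (0.93), and the translocon gene Sec61a1 (0.50), and 4 fell. Of 27 tRNA synthetase and ATF4 genes 10 rose, among them Vars1 and Mars1 (0.64 and 0.43), and 8 fell, among them the stress factor Ddit3 (-0.50). In the respiratory chain Cycs and Cyc1, both cytochromes, rose (0.58 and 0.53).

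Among genes of detoxification, falls outnumbered rises. Of 38 NRF2 and oxidant genes, 6 rose, 19 fell and 13 were not called. The aldehyde oxidase Aox1 stood at 141, 130.3 and 124 CPM with vehicle and 21.2, 26.2 and 19.8 CPM with TGFB1, without overlap, and catalase, Cat, fell from 126 to 52.1 CPM. Gclc, the first step of glutathione synthesis, Txnrd1 and the oxidase Nox4 rose (0.76, 0.66 and 1.29). Of 7 aryl hydrocarbon receptor genes 6 fell. Aldh3a1, a classical target of the receptor, stood at 522, 485 and 510.3 CPM with vehicle and 62.2, 76.5 and 67.2 CPM with TGFB1, Nqo1 fell from 269 to 159 CPM and Cyp1b1 from 121 to 79.2 CPM, whereas the receptor gene Ahr was the 1 that rose (64.0 to 126 CPM).

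Of 43 lysosome and autophagy genes 35 fell, 2 rose and 6 were not called (median -0.46). The protease Ctsd fell from 1867 to 1014 CPM, Tpp1 from 184 to 90.6 CPM and Ctsa from 328 to 184 CPM. Neu1, a lysosomal sialidase, went against the rest at 65.7, 62.1 and 66.1 CPM with vehicle and 388, 383 and 422 CPM with TGFB1, a 6.15-fold rise without overlap (edgeR adjusted p = 6.55e-17). The other that rose was Map1lc3a (0.45). Whether counting used the strand is not given in the sources used here, so reads of a gene overlapping Neu1 could not be told apart from its own. The list took 1.49% ± 0.0422 (SD, n = 3) with vehicle and 0.995% ± 0.0233 with TGFB1 of all counts (exact two-sided permutation test, p = 0.1). Among 18 histone deacetylase and sirtuin genes 4 rose, 4 fell and 10 were not called, with Hdac2 up from 83.1 to 132 CPM and Hdac5 and Sirt2 down (-0.61 and -0.59). Without vehicle replicate 1, TGFB1 replicate 1 or TGFB1 replicate 2 only 2 of these genes rose.

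The TGFB1 effect was then set beside that in cells with the HDAC1 plasmid, whose vehicle and TGFB1 libraries are separate from the 6 described here. There 3638 of the 14601 genes rose and 3532 fell. Of the calls in empty vector cells, 76.7% were called the same way with HDAC1, which is 79.4% of the calls with HDAC1, and 43 genes were called in opposite directions. The log2 fold changes correlated at Pearson r = 0.728 across the 14601 genes, which are not independent replicates. The difference between the 2 effects was called for 70 genes (0.479%), 20 with a more positive and 50 with a more negative effect in HDAC1 cells. Of the 44 mitosis genes 12 had such a difference. The median effect of all 44 went from 0.63 in empty vector cells to 0.26 in HDAC1 cells, where 34 were called higher and 0 lower. With vehicle the mitosis genes summed to 3364 to 3631 CPM in empty vector cells and 4723 to 5295 CPM in HDAC1 cells. With TGFB1 the sums were 5168 to 5497 CPM and 5939 to 6473 CPM, so HDAC1 cells were higher in both treatments. The part of the vehicle level in the smaller effect was not tested. Of the 47 replication genes 3 differed, and of the 45 interferon-stimulated genes 0 did (medians -0.51 and -0.55).

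The counts of differences depended on single libraries of the empty vector groups. In place of 20 and 50 genes, 17 and 75 were called without vehicle replicate 1, 3 and 11 without vehicle replicate 2, 62 and 195 without vehicle replicate 3 and 10 and 22 without TGFB1 replicate 1. The count of mitosis genes was 5, 1, 17 and 4 in these 4 fits, that of replication genes 1, 1, 12 and 1, and that of interferon-stimulated genes 0, 0, 2 and 0. Over all 6 fits that left out 1 library, the median difference of the mitosis genes ran only from -0.39 to -0.32 on the log2 scale. Of the 70 genes, 12 were higher with TGFB1 in empty vector cells and at least 2-fold lower with it in HDAC1 cells. The heart muscle genes summed to 255 to 490.3 CPM for HDAC1 with vehicle and 164 to 182 CPM for HDAC1 with TGFB1. The brain genes summed to 226 to 285 CPM and 166 to 181 CPM in these groups, and the median TGFB1 effect with HDAC1 was -1.2 for the heart list and -1.07 for the brain list. The called differences held 0 genes of the heart list and 2 of the brain list, Mag (-3.29) and Rbfox3 (-2.68). The part of these tissue genes in the differences was not tested.

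**Figure D5:**
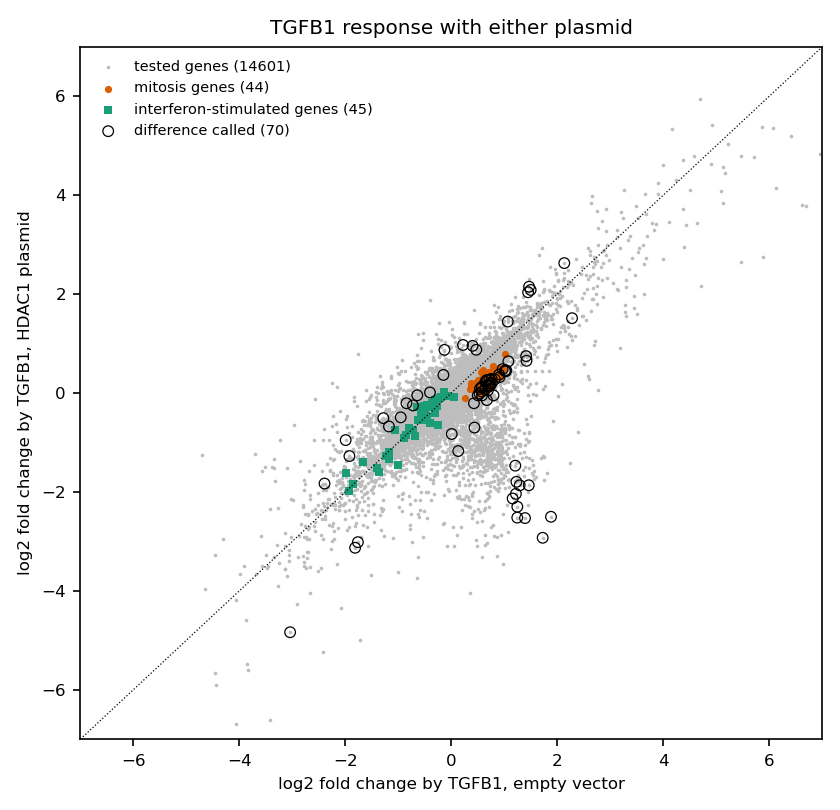
Each point is a tested gene, with its log2 fold change by TGFB1 in empty vector cells on the x axis and in HDAC1 cells on the y axis, and a dotted line of equal effects. Most mitosis genes (orange) lie below the line, interferon-stimulated genes (green) along it, and circles mark the 70 genes with a called difference. Only 1 gene lies outside the range drawn.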

How the data were processed

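RNA from rat NRK-49F fibroblasts was sequenced in 12 libraries, 3 per group. The deposited raw counts are whole numbers of reads per rat Ensembl gene. Per the submitters' processing notes, Trim Galore 0.6.7, featureCounts (Subread 2.0.1) and DESeq2 1.44 were used and the build mm10, a mouse build, is named, although the gene identifiers are those of rat. The aligner, the rat build and the strand setting are not given in the sources used here. A second table deposited by the authors holds a normalized signal, the counts divided by 1 constant per library, for 14275 genes with at least 100 counts. It served only to give symbols and classes of genes, so a gene outside it has no symbol here.

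Genes were filtered with edgeR's filterByExpr and scaled by TMM, and levels are given on that scale as CPM, counts divided by the scaled library size. The main test was edgeR 4.0.16's quasi-likelihood test in R 4.3.3, with 1 mean for each of 4 groups, Benjamini-Hochberg adjustment over 14601 genes and a threshold of 0.05. Log2 fold changes and standard errors come from that fit. Unless a sentence names another test, every adjusted p is from it. Fold changes shrink at low counts because of edgeR's prior count. Alternatives were DESeq2 size factors, the DESeq2 1.42.0 Wald test, other filters, a fit of the 6 empty vector libraries alone, a block for the replicate number and fits that each left out 1 library. In simulated counts 200 of 14601 genes were changed. There 66.5% of 1.5-fold, 75% of 2-fold and 97.5% of 4-fold changes were recovered, with 10, 10 and 11 false calls. In the data 7429 genes were called, which makes the adjusted threshold less strict than in the simulation. These rates therefore do not give the share of true changes found here.

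The 49 lists of pathways and 9 of cell type markers hold symbols of which those in the table were tested. Where 2 identifiers shared a symbol, the one with the higher level was used. Named genes were 10 known response genes, the 12 largest changes each way among genes whose groups did not overlap at a mean log2 CPM of 2 or more, the 6 largest CPM changes each way, the members of each list with the smallest adjusted p, with up to 2 of the opposite direction and up to 2 not called, and the 5 largest differences each way from the HDAC1 cells. All other genes named, further list members included, were chosen after their values were seen. Results for 4 of the genes so named are not reported here. Members and lists were chosen with earlier results of these data known. Promoters are those of RefSeq (GRCr8), matched by symbol for 9365 tested genes.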

Additional observations from a re-analysis of the deposited data

Results flagged for a closer look

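For 22 named genes the TGFB1 effect differed between empty vector and HDAC1 cells by a test of the difference itself (edgeR quasi-likelihood test of the interaction, Benjamini-Hochberg adjusted over 14601 genes, all adjusted p under 0.05). These are the named genes that this test called, so their passing it was fixed in advance. Some were named only for large differences in the same test. Each difference below is the log2 effect with HDAC1 minus that with the empty vector. Genes of the cell cycle had a more negative effect with HDAC1. Cdc20 rose by 0.71 with the empty vector and gave 0.14 with HDAC1, a difference of -0.58. The differences were -0.53 for Plk1, -0.49 for Ccnb1, -0.44 for Cdc6, -0.63 for E2f1 and -0.81 for Cdkn3, a phosphatase of the cycle. With HDAC1 the effects on Plk1, Ccnb1 and Cdc6 were 0.38, 0.48 and 0.64, and those on E2f1 and Cdkn3 were -0.05 and -0.14. The inhibitor Cdkn1b had effects of -0.72 and -0.25, a difference of 0.47.

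Several secreted factors that fell with the empty vector fell less with HDAC1 or were closer to 0. The differences were 0.56 for Cxcl10, 0.77 for Ccn5, 0.59 for Grem1, 0.65 for Inhbb and 0.64 for the WNT ligand Wnt5a, and the potassium channel Kcnj2 gave 1.04. Inhba (0.59), Adamts12 (0.59) and Tgfb3 (0.38) had larger rises with HDAC1. The water channel Aqp1 had effects of -1.81 and -3.13, a difference of -1.31. Slc17a6, a vesicular glutamate transporter, gave a difference of -0.77, the matrix protein Vwa1 -0.85 and Dnajc6, a clathrin uncoating factor, -1.14. Of the brain marker list, 10 of 22 genes were called lower with TGFB1 in HDAC1 cells (median -1.07), beside 3532 of all 14601 genes. The part of such genes in the differences of Slc17a6 and Dnajc6 was not tested. Within that list the difference was -3.29 for Mag, a myelin glycoprotein, and -2.68 for Rbfox3, a neuronal splicing factor. In the 11 alternatives that keep the HDAC1 libraries, 6 of the 22 differences passed in every one, those of Aqp1, Cdkn3, E2f1, Grem1, Slc17a6 and Wnt5a. Without vehicle replicate 2 only these 6 and Mag passed, while 10 passed without TGFB1 replicate 1 and 17 without vehicle replicate 1. Mag was not tested at a mean of at least 1 CPM.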

How the results depend on the processing

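The counts of genes that rose and fell with TGFB1 in empty vector cells stayed within 1.5 times their value in every alternative run: 3286 to 3763 higher and 3255 to 3749 lower, and at 2-fold 411 to 751 and 570 to 951. Over all genes, fits that left out 1 library shared 6476 to 6671 calls with the 7429 of the main fit. Many named genes were picked for a small adjusted p or a large change in the main fit, which favours their staying called. Of 289 named genes followed through the alternatives, 268 passed the test. Of these, 260 passed it in every alternative in which they were tested, and none of the 268 turned direction. Dcn, Has1, Mag and Pparg were not tested at a mean of at least 1 CPM. The 8 that missed it in at least 1 alternative were Chpf, Dnajc6, Mag, Rbfox3 and the proteasome genes Psmb5, Psmb8, Psmb10 and Psme1. Of those not called, Ccl2, Cdkn1a, Id3, Itga11, Rela and Zeb2 each passed in 1 fit that left out a library. Itga11 also passed with the 6 empty vector libraries alone, and Rela with DESeq2 and at a mean of at least 1 CPM. Others changed sign when 1 library was left out. Their ranges on the log2 scale were -0.0752 to 0.112 for Ifi27, -0.00582 to 0.141 for Itgav, -0.0147 to 0.101 for P4hb, -0.0872 to 0.0584 for Spp1, -0.0516 to 0.0494 for Srebf2 and -0.0868 to 0.0751 for Timp1. The counts of differences between HDAC1 and empty vector effects moved. In place of 20 more positive and 50 more negative, DESeq2 called 77 and 198, edgeR without a filter on low counts 89 and 390, and fits that left out 1 library 3 to 62 and 11 to 195. The cause was not tested. With 3 libraries a group, small changes at low levels can be missed: the median standard error under 1 CPM was 0.49.

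No pairing of the libraries by replicate number was seen over all 14601 genes, low levels included, and the labels do not say whether the numbers pair them. Deviations of same-numbered vehicle and TGFB1 libraries from their group means correlated at 0.0377, -0.0551 and 0.0146, and not every library correlated best with its own number. With the replicate number as a block, 3702 genes rose and 3495 fell, at 2-fold 629 and 825, and the differences numbered 20 and 78.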

Other observations

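Genes of the proteasome, the complex that degrades tagged proteins, were looked at one by one after their class count was seen. Of 47 genes with a proteasome symbol 28 rose and 6 fell. Standard subunits such as Psmb5, Psmb6 and Psmd1 were among those that rose (log2 fold changes 0.29, 0.35 and 0.25). Psmb8, Psmb9 and Psmb10, the catalytic subunits of the immunoproteasome, which interferon induces, were among the 6 that fell. Psmb8 stood at 319, 303 and 304 CPM with vehicle and 230.4, 223 and 299 CPM with TGFB1, with groups that did not overlap (edgeR adjusted p = 0.0241). Psmb9 fell from 249 to 183 CPM and Psmb10 from 279 to 218 CPM. The other 3 were Psme1, a proteasome activator subunit that interferon also raises (-0.22), Psmf1 (-0.58) and Psmd10 (-1.11). Psmb9, Psmf1 and Psmd10 passed the test in every alternative run. Psmb8 and Psmb10 each missed it in 4 of the 6 fits that left out 1 library, with adjusted p of up to 0.104 and 0.0759, and Psme1 in 5, with adjusted p of up to 0.236. Without TGFB1 replicate 3, Psmb5 was not called (adjusted p = 0.153) and the class counts were 17 higher and 6 lower.

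Several genes that were close to 0 with vehicle were measurable in all 3 libraries with TGFB1. All genes named here were chosen after their values were seen. F13a1, the catalytic chain of coagulation factor XIII, which crosslinks fibrin, stood at 0.0442, 0.159 and 0.215 CPM with vehicle and 8, 8.22 and 7.24 CPM with TGFB1. The LIM protein gene Lmcd1 stood at 0.442, 1.01 and 0.894 CPM with vehicle and 19.2, 16.1 and 21.3 CPM with TGFB1, and Chrdl2, of the chordin-like BMP antagonists, at 0.0442, 0.212 and 0.143 CPM with vehicle and 4.88, 3.64 and 5.26 CPM with TGFB1. The cation channel gene Trpm2 went from 0.471 to 10.5 CPM and Ccbe1, needed for lymphatic growth, from 0.996 to 10.3 CPM. Falls at low levels included the homeobox gene Barx2 (13.9 to 1.38 CPM) and Rerg, a small GTPase (5.83 to 0.478 CPM). Denr, which helps to recycle ribosomes, rose at a higher level, at 97.4, 99.2 and 103 CPM with vehicle and 442, 441 and 497 CPM with TGFB1 (log2 fold change 2.21).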
